A study of Mus musculus with 3 samples.

Results

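The Gimap genes encode GTPases of the immunity-associated protein family. All 8 listed members (Gimap1, Gimap3, Gimap4, Gimap5, Gimap6, Gimap7, Gimap8 and Gimap9) were found on the arrays. They were taken by name, as every probe set whose only gene symbol is one of them. This gave 11 probe sets of 45037, standing for 8 of 18193 named genes. Gimap4, Gimap6 and Gimap7 have 2 probe sets each and the other members have 1. Gimap3 also carries Gimap5 among its older names in RefSeq, and the probe sets were assigned by current symbol. Probe sequences were not used here, so cross-hybridization between members (Gimap3 and Gimap5, or the brightest Gimap4 probe set, of the _s_at kind that can match several transcripts) was not tested.

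Gimap proteins are small guanine nucleotide binding proteins that sit on intracellular membranes and are made mainly by lymphocytes. Their genes lie side by side in a single cluster, and loss of individual members, Gimap5 above all, leads to loss of mature T cells. Members have been reported to bind proteins of the Bcl2 family, which decide whether a cell enters apoptosis, and to take part in autophagy and lysosome function.

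RNA came from CD4+CD25- T cells of the lymph nodes and spleen of BALB/c mice, female and 6 to 8 weeks old, that lack both Stat6 and T-bet. This double deficiency was shared by all conditions, so no array represents a wild-type cell. Stimulation lasted 2 days, with anti-CD3 bound to the plate (5 µg/ml) and with anti-CD28 (1 µg/ml). One culture received TGFβ alone at 5 ng/ml. The others received IL-6 at 10 ng/ml, joined either by IL-23 at the same concentration or by TGFβ at 5 ng/ml. A single Affymetrix array (n = 1) was run for each of these cultures. There were therefore no replicates and no test, and the labels do not say how many mice a sample holds. No unstimulated cells were included, so a change on activation cannot be read.

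Levels below are quantile-normalized intensities in arbitrary units, in a fixed order of arrays: TGFβ, then IL-6/IL-23, then IL-6/TGFβ. Intensities of different probe sets cannot be set against each other. A floor of 47.4 was taken from probe sets of genes of other tissues, and a gene counts here as higher or lower where 2 arrays differed at least 2-fold with the brighter one above the floor. The only spread available is that between probe sets for 1 gene. For a log2 ratio this SD was 0.23 for IL-6/TGFβ relative to TGFβ, 0.30 for IL-6/TGFβ relative to IL-6/IL-23 and 0.31 for IL-6/IL-23 relative to TGFβ. It leaves out the differences between cultures, mice and arrays. The 3 comparisons share arrays, so a high or low reading on 1 array enters 2 of them.

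The samples carried T cell transcripts throughout. Of 11 measured T cell identity genes, all were above the floor on every array, among them Cd4 at 1333, 904 and 716. As deposited, the arrays differed in overall brightness, with median intensities of 35.8, 17.8 and 28.1. Of the markers of other cells, 1 of 5 B cell genes, 2 of 6 myeloid genes, 1 of 4 dendritic cell genes and 1 of 5 endothelial genes were above the floor on any array. Cd79a, Pax5, Lyz2, Itgam, Cdh5 and Kdr were at the floor on all of them. Of 5 CD8 T cell and NK cell genes, 4 were above the floor on at least 1 array.

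In RefSeq (GRCm38.p6) the members stand in an unbroken run on chromosome 6, in the order Gimap8, Gimap9, Gimap4, Gimap6, Gimap7, Gimap1, Gimap5 and Gimap3. The promoters of Gimap7 and Gimap4, the members with the highest ratios of IL-6/IL-23 to TGFβ, are shown with those of Gimap9 and Gimap8, the members with the lowest. Each runs from 250 bases before to 50 after a transcript start, 5′ to 3′ on the gene's strand, and capitals mark matches to the motifs described below. All are on the plus strand: Gimap7 at chr6:48718371-48718670, Gimap4 at chr6:48684328-48684627, Gimap9 at chr6:48675885-48676184 and Gimap8 at chr6:48647111-48647410.
Gimap7: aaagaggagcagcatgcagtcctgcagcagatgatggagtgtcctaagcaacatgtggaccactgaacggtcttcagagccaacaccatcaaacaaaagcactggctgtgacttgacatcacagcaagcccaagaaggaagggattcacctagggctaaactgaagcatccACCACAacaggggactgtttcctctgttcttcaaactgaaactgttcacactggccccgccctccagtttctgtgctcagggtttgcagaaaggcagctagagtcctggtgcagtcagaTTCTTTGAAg
Gimap4: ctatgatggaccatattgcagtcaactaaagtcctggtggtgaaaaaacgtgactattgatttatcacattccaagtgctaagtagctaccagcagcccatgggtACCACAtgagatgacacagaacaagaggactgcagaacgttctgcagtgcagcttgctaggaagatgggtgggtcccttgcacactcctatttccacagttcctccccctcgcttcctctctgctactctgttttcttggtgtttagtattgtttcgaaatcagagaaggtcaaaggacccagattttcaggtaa
Gimap9: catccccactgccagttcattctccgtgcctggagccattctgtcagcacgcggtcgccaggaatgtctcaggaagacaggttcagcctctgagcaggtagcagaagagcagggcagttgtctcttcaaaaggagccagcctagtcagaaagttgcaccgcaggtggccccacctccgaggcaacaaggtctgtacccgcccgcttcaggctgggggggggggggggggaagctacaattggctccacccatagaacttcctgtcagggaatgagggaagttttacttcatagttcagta
Gimap8: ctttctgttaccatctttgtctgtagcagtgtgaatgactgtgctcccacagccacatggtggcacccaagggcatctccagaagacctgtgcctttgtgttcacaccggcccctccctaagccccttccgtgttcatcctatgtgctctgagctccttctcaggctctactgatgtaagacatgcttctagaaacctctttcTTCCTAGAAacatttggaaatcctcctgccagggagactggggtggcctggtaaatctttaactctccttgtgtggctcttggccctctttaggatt

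These promoters were searched on both strands for a STAT motif (TTCNNNGAA), a RUNX motif (TGTGGT), a FOXO motif (GTAAACA) and an AP-1 motif (TGANTCA). Gimap7 held a RUNX match and, after the transcript start, a STAT match. Gimap4 held a RUNX match, Gimap8 a STAT match before the transcript start shown (first base at -47), and Gimap9 none of the 4 motifs. Over the 9 Gimap promoters in the table (Gimap8 has 2, which overlap), the STAT motif was in 4, the RUNX motif in 3, the FOXO motif in 1 and the AP-1 motif in 0. Of all 32851 promoters, 8.30% held the STAT motif, 16.8% the RUNX motif, 3.65% the FOXO motif and 7.81% the AP-1 motif. The STAT match occurred in Gimap3, Gimap6 and Gimap7, which were highest with IL-6/IL-23, and in Gimap8, which was lowest there. The RUNX match occurred in Gimap4, Gimap7 and Gimap1. A match is a string of letters in this window and was not tested as a binding site.

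RNA of every member was detected in all conditions. The brightest probe set of each of the 8 genes was above the floor on all 3 arrays. IL-6/IL-23 gave the highest level for 6 members (Gimap1, Gimap3, Gimap4, Gimap5, Gimap6 and Gimap7), and TGFβ for Gimap8 and Gimap9. IL-6/TGFβ gave it for 0 members. The lowest array was TGFβ for 4 members (Gimap3, Gimap4, Gimap6 and Gimap7), IL-6/TGFβ for Gimap1 and Gimap5, and IL-6/IL-23 for Gimap8 and Gimap9. The same counts over all genes were not made, so this order cannot be called a trait of the family.

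Gimap7, which hydrolyses GTP when its molecules pair, varied most between the arrays. It read 297, 764 and 359. The IL-6/IL-23 array stood apart from both others, which lay within 1.21-fold of each other. The other Gimap7 probe set read 50.9, 108 and 36.7, the last of these below the floor, with the IL-6/IL-23 array again the highest.

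Gimap4, reported to bind the pro-apoptotic protein Bax and to hasten T cell death once it has begun, was also highest with IL-6/IL-23. It read 3394, 6160 and 4486, and its other probe set read 1443, 3434 and 1998. Both probe sets gave the same order of the arrays.

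Gimap5, the member whose loss depletes peripheral T cells, read 199, 320 and 185, so the IL-6/IL-23 array was high and the others were close. Gimap6, which binds the autophagy protein Gabarapl2, read 825, 1270 and 1092. The TGFβ array was the low one for Gimap6. The other Gimap6 probe set lay below the floor on all arrays (33.7, 21.6 and 22.9) and was not read. Gimap3, the close relative of Gimap5, read 853, 1110 and 973, in the same order of arrays as Gimap6 and with smaller steps.

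Gimap1, which mature T and B cells need to survive, read 880, 969 and 768, a spread of 1.26-fold from the highest to the lowest array. Gimap8, a longer protein with repeated GTPase domains, read 1423, 1213 and 1296. Gimap9 read 927, 669 and 816. Gimap8 and Gimap9 were lowest with IL-6/IL-23, the array on which the other 6 were highest. The steps were small for Gimap8, 1.17-fold from the highest to the lowest array. After median scaling Gimap8 was instead lowest with IL-6/TGFβ, at log2 ratios of -0.12 over IL-6/IL-23 and -0.26 over TGFβ.

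**Figure D1:**
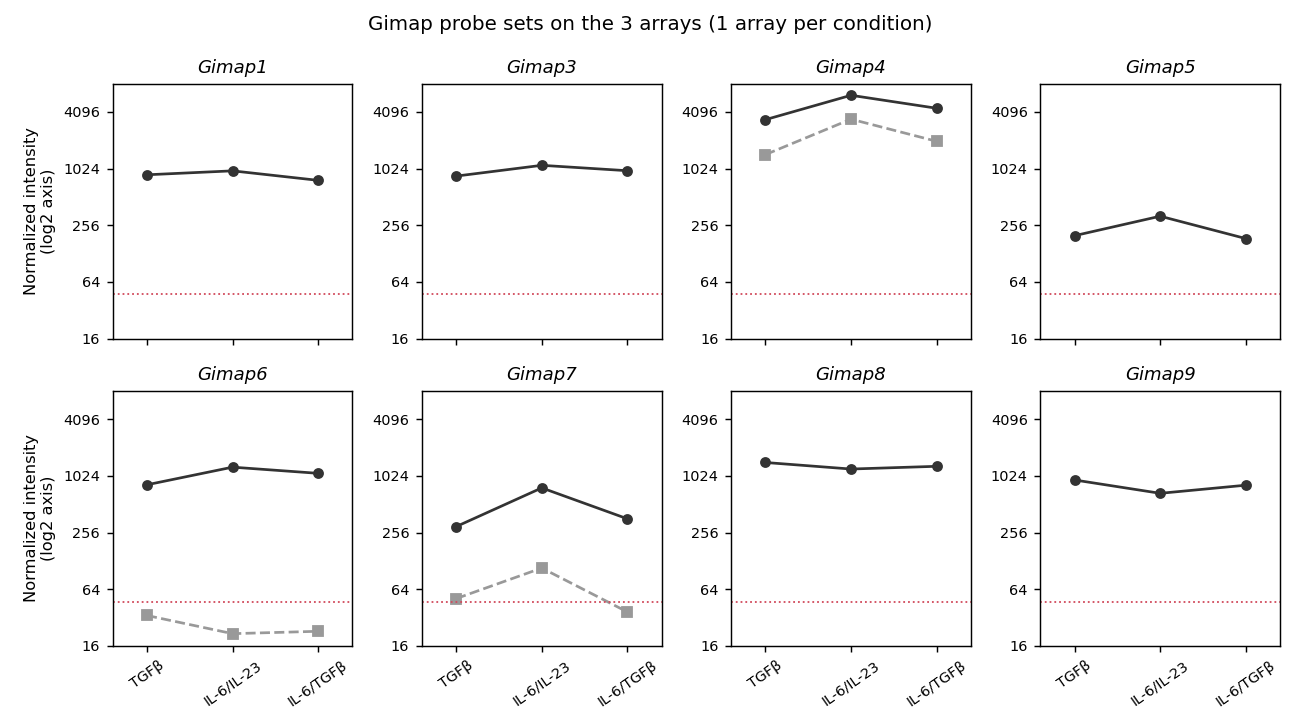
Quantile-normalized intensity (log2 axis, arbitrary units) of each Gimap probe set on the TGFβ, IL-6/IL-23 and IL-6/TGFβ arrays, 1 array per condition. Black circles are the brightest probe set of a gene, grey squares the other one, lines join the values of 1 probe set, and the dotted red line is the floor of 47.4; Gimap7 shows the widest spread, from 297 to 764.

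The study set IL-6/TGFβ against TGFβ to find genes of Th17 polarization. After quantile normalization, the brightest probe set of each Gimap gene read with IL-6/TGFβ within 1.33-fold of its level with TGFβ. The other Gimap4 probe set was 1.38-fold higher (0.47). Of the 8 members 0 were at least 2-fold higher, against 2.84% of 9521 genes, and 0 were at least 2-fold lower, against 2.23%. In either direction 5.06% of all genes were 2-fold apart. The median log2 ratio was 0.04, and it was 0.03 over all genes. Gimap6 (0.40), Gimap4 (0.40), Gimap7 (0.27) and Gimap3 (0.19) lay above 0, and Gimap5 (-0.10), Gimap8 (-0.13), Gimap9 (-0.18) and Gimap1 (-0.20) below it. For 5 members the ratio was within 1 probe-set SD of 0, as for 50.9% of all genes. For 0 members it was beyond 2 SD, as for 22.1% of all genes. Of the 28 pairs of members, 0 differed by more than 2 SD of a difference between probe sets, where 25.5% of all pairs of genes did. Without scaling, the log2 ratios of all 8 members lay below 0, down to -0.65, where the median over all genes was -0.41.

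IL-6/TGFβ was set against IL-6/IL-23 to leave out genes that go with IL-17 only. Of the 8 members, 1 was lower by the 2-fold rule, against 3.72% of 9709 genes, and 0 were at least 2-fold higher, against 3.97%. The lower member was Gimap7, which read 2.13-fold lower (-1.09), and its other probe set was at least 2.27-fold lower, being below the floor with IL-6/TGFβ. Gimap5 was 1.73-fold lower (-0.79). The ratio was -0.46 for Gimap4, whose other probe set gave -0.78. Gimap1 (-0.34), Gimap6 (-0.22) and Gimap3 (-0.19) were closer to 0, and Gimap8 (0.10) and Gimap9 (0.29) lay above it. In either direction 7.68% of all genes were 2-fold apart. The median over the members was -0.28, and over all genes it was -0.04. Gimap5 and Gimap7 were beyond 2 SD of 0, as were 21.2% of all genes, and 4 members were within 1 SD, as were 50.3% of all genes. As both cytokine mixtures hold IL-6 but differ in TGFβ and in IL-23, these ratios cannot be assigned to either of those cytokines.

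The remaining pair, IL-6/IL-23 relative to TGFβ, held the largest differences of the family. Its cultures differ in TGFβ, in IL-6 and in IL-23, so its ratios cannot be assigned to any single cytokine. Of the 8 members, 1 was at least 2-fold higher, against 3.75% of 9614 genes, and 0 were at least 2-fold lower, against 3.53%. Gimap7 was the higher member at 2.58-fold (1.37), with 2.11-fold (1.08) from its other probe set. Of all genes, 1.98% had a higher ratio than Gimap7, which is given here as the highest of the 8 members. Gimap4 was 1.81-fold higher (0.86) by its brightest probe set and 2.38-fold higher (1.25) by the other. The other Gimap4 probe set thus passed the 2-fold rule, and the difference between both was 0.90 SD.

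Gimap5 was 1.61-fold higher with IL-6/IL-23 than with TGFβ (0.69), and 8.02% of genes had a higher ratio. Gimap6 was 1.54-fold higher (0.62), with 9.61% of genes above it. Gimap4, Gimap5, Gimap6 and Gimap7 were the 4 members beyond 2 SD of 0, as were 18.4% of all genes. Gimap1 and Gimap8 were the 2 members within 1 SD, as were 53.3% of all genes. Gimap3 (0.38) and Gimap1 (0.14) were lower in this order, and Gimap8 (-0.23) and Gimap9 (-0.47) lay below 0. In either direction 7.28% of all genes were 2-fold apart. The median over the members was 0.50, beside 0.06 over all genes. The middle 50% of all genes lay between -0.23 and 0.32.

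**Figure D2:**
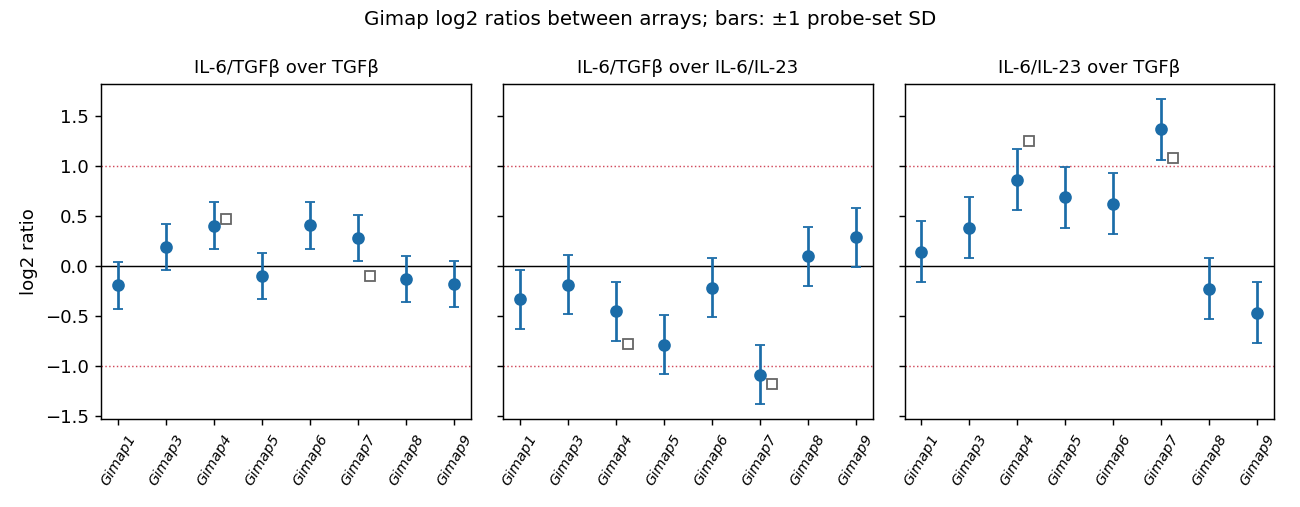
Log2 ratio of each Gimap gene in the 3 comparisons. Filled circles are the brightest probe set with bars of ±1 SD between probe sets of a gene (not between replicates), open squares the other probe set where it could be read (a bound for Gimap7 in both comparisons with IL-6/TGFβ), and dotted lines the 2-fold rule; Gimap7 alone passed it by its brightest probe set, at 1.37 for IL-6/IL-23 relative to TGFβ and -1.09 for IL-6/TGFβ relative to IL-6/IL-23.

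**Figure D3:**
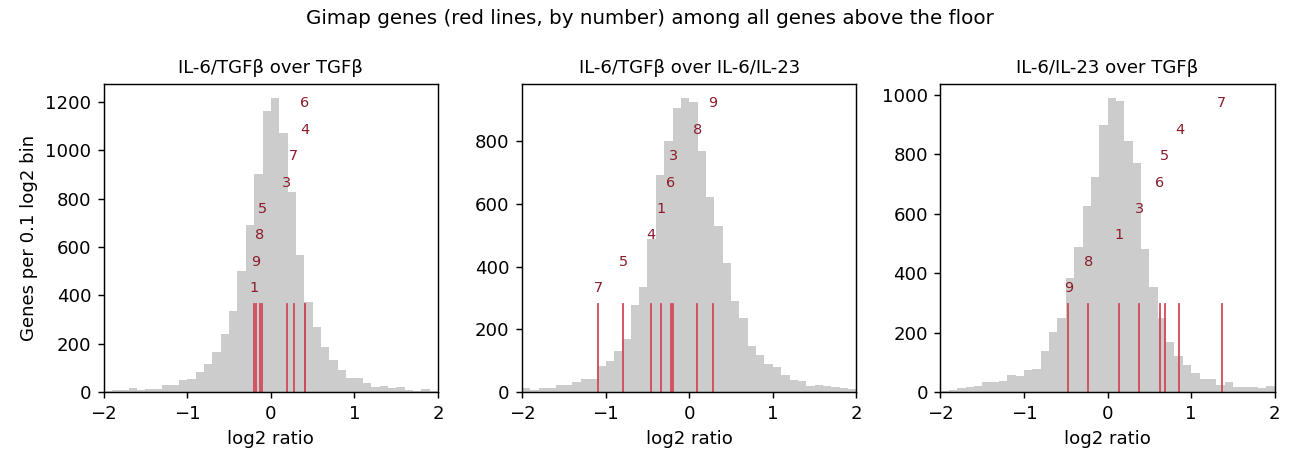
Number of genes per 0.1 log2 bin (grey bars, every gene above the floor on at least 1 array of the pair) with the Gimap genes as red lines, numbered by gene; the height of a number carries no value, and the axis is cut at -2 and 2. For IL-6/TGFβ relative to TGFβ the members lie between -0.20 and 0.40, while for IL-6/IL-23 relative to TGFβ they spread from -0.47 to 1.37.

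Ratios also differed between members, as they did for many pairs among all genes. The pairs counted here reuse the same few members and are not independent. Whether the family varied more than other genes was not tested. For IL-6/IL-23 relative to TGFβ the ratio ran from -0.47 in Gimap9 to 1.37 in Gimap7, a difference of 1.84 log2 units, or 4.25 SD of a difference between probe sets. Of 28 pairs of members, 9 differed by more than 2 SD, where 21.6% of all pairs of genes did. The interquartile range was 0.68 over the members and 0.55 over all genes. The SD covers probe sets alone, so differences between cultures are not weighed. All of these had Gimap9, Gimap8, Gimap1 or Gimap3 as the lower gene and Gimap4, Gimap5, Gimap6 or Gimap7 as the higher one. Gimap4 stood 1.33 above Gimap9, its neighbour in the cluster. When IL-6/TGFβ was set against IL-6/IL-23, 6 of 28 pairs differed by more than 2 SD, where 24.3% of all pairs of genes did. The interquartile range there was 0.42 over the members and 0.57 over all genes. Each of these 6 pairs had Gimap7 or Gimap5 as the lower gene. These pairs share the IL-6/IL-23 array with those just given. Differences between members are the same after median scaling, scaling on control probe sets or no scaling, since those shift all genes of an array alike (1.83 for Gimap7 against Gimap9).

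The sign of many ratios, in contrast, depended on the scaling, and 11 of 24 changed sign without any. Unscaled, the median over the members for IL-6/IL-23 relative to TGFβ was -0.41, while that over all genes was -0.83. The members' median lay above that of all genes by 0.44 after quantile normalization, 0.48 after median scaling, 0.47 after scaling on hybridization controls and 0.42 without scaling. The last 3 of these shift all genes of an array alike. Their values can differ only through which genes passed the floor, so their likeness adds no support. By their brightest probe sets, Gimap7 (0.45) and Gimap4 (0.11) read higher with IL-6/IL-23 than with TGFβ as deposited. The ratio of Gimap4 was below the probe-set SD of 0.31. Gimap7 had deposited intensities of 412, 564 and 363 and Gimap4 of 4539, 4902 and 4429, although the array with IL-6/IL-23 had the lowest median. The other Gimap7 probe set was nearly level as deposited, at 72.8 with TGFβ and 73.2 with IL-6/IL-23, and the other Gimap4 probe set read 1982 and 2595. These members also had the highest ratios after quantile normalization, so their place here adds no support. Among 8576 genes above the floor on every array, 3.50% were brighter as deposited with IL-6/IL-23 than with TGFβ, and 2 of the 8 members were among them.

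**Figure D4:**
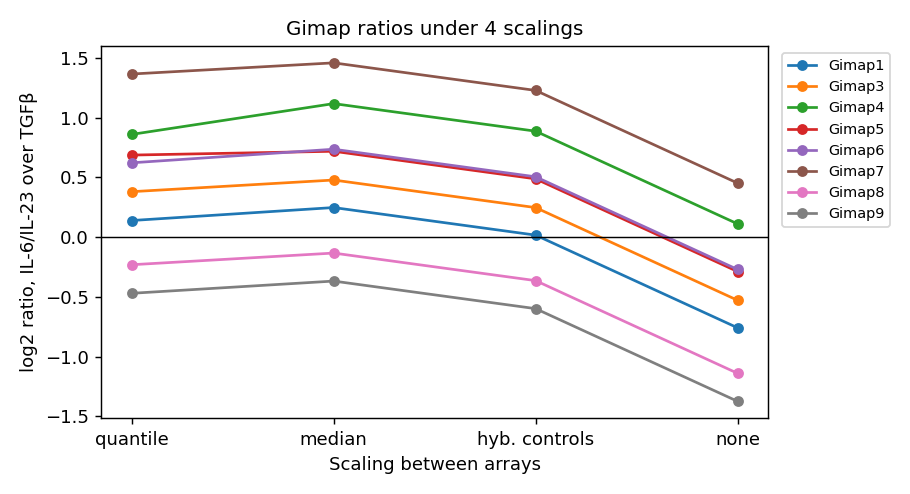
Log2 ratio of each Gimap gene (brightest probe set) for IL-6/IL-23 relative to TGFβ under 4 scalings between the arrays; lines join the values of 1 gene. Gimap7 and Gimap4 stay above 0 in all 4, at 0.45 and 0.11 without scaling, and Gimap8 and Gimap9 stay below 0.

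Markers of other cells that may also transcribe Gimap genes were set beside these ratios as summed intensity in the same order of arrays. The 5 B cell genes summed to 159, 122 and 164, and of these Ms4a1 alone was above the floor, at 51.7 with IL-6/TGFβ only. The 5 endothelial genes summed to 158, 202 and 155, and of these Pecam1 alone was above the floor, at 110, 133 and 108. The 4 dendritic cell genes summed to 145, 212 and 227, and of these H2-Ab1 alone was above the floor, at 121, 202 and 136. The 5 CD8 T cell and NK cell genes summed to 341, 376 and 305, with Cd8a at 145, 120 and 80.2 and Cd8b1 at 140, 174 and 104. In the same list Klrk1 read 34.9 (below the floor), 54.0 and 66.4, and Klrd1 was above the floor with IL-6/TGFβ only, at 53.0. These sums include values below the floor and are read across arrays only. Among the markers above the floor on any array, H2-Ab1, Pecam1 and Cd8b1 were highest with IL-6/IL-23, as 6 of the Gimap genes were. Cd8a and Mpeg1 were highest with TGFβ, and Klrk1, Klrd1, Ms4a1 and Csf1r with IL-6/TGFβ. The part of these markers in the Gimap ratios was not tested. The 6 myeloid genes summed to 282, 136 and 155, and Mpeg1 alone set the high value, at 153 on the TGFβ array. Csf1r read 63.2, 40.1 (below the floor) and 79.4. The 2 red cell genes measured, Hba-a1 and Alas2, were at the floor on every array. In bulk RNA of this kind, fewer cells of a type and less RNA per cell cannot be told apart.

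Partners reported for Gimap proteins were measured for 8 of 9 listed genes. For IL-6/IL-23 relative to TGFβ, 1 of the 8 was at least 2-fold higher, against 3.75% of all genes, and 0 were lower, against 3.53%. The median was 0.29, and 0.06 over all genes. The higher gene was Bcl2l11, which encodes the pro-apoptotic protein Bim, at 124, 305 and 218 (1.30). Bad (0.78) and Bak1 (0.74), also pro-apoptotic, were below 2-fold. Bcl2l1, which encodes the survival protein Bcl-xL, read 873, 1042 and 524, a ratio of -0.99 for IL-6/TGFβ relative to IL-6/IL-23. In both comparisons with IL-6/TGFβ, 0 of 8 partners were 2-fold apart, with medians of 0.18 over TGFβ and -0.30 over IL-6/IL-23. Over all genes 5.06% and 7.68% were 2-fold apart, with medians of 0.03 and -0.04.

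Of 12 autophagy genes, 0 were 2-fold apart for IL-6/TGFβ relative to TGFβ (median 0.10) and 0 for IL-6/IL-23 relative to TGFβ (median 0.04). Over all genes these shares were 5.06% (median 0.03) and 7.28% (median 0.06). Between IL-6/TGFβ and IL-6/IL-23, 1 autophagy gene was higher with IL-6/TGFβ, against 3.97% of all genes, and 0 were lower, against 3.72%. The median was 0.08, and -0.04 over all genes. The higher gene was Map1lc3a, a subunit of the autophagosome coat, at 168, 108 and 223 (1.05). Its relative Map1lc3b was at 0.89 and Gabarapl1 at -0.49 in this comparison. Atg5, which helps to attach these proteins to membrane, was at 0.26. Gabarapl2, the partner of Gimap6, read 1210, 1519 and 1407.

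Gimap genes are typical of resting lymphocytes, so other genes of naive and resting T cells were listed beside them, and 12 of 15 were measured. For IL-6/IL-23 relative to TGFβ, 2 were at least 2-fold higher, against 3.75% of all genes, and 1 was lower, against 3.53%. The median was -0.26, where that of the Gimap genes was 0.50 and that of all genes 0.06. The chromatin organizer Satb1 read 1225, 6899 and 5894, and Il7r, the receptor chain for the survival cytokine IL-7, read 169, 447 and 676. Klf2, a transcription factor that keeps T cells quiescent, was the lower one at 309, 92.5 and 339. With IL-6 added to TGFβ, 3 were higher and 0 lower (median 0.35), against 2.84% and 2.23% of all genes (median 0.03). The 3 were Satb1 (2.27), Il7r (2.00) and the egress receptor S1pr1 (1.45). For IL-6/TGFβ relative to IL-6/IL-23, 2 were higher and 1 was lower (median 0.56), against 3.97% and 3.72% of all genes (median -0.04). The higher ones were Klf2 (1.88) and the transcription factor Foxo1 (1.15), and the lower one was the costimulatory receptor Cd27 (-1.03).

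Of 6 measured genes of IL-7 survival signalling, Il7r alone was 2-fold apart, for IL-6/TGFβ relative to TGFβ and for IL-6/IL-23 relative to TGFβ (1.40). The list's medians were -0.12 and -0.20 in these comparisons, and 0.33 for IL-6/TGFβ relative to IL-6/IL-23, in which 0 were 2-fold apart. Over all genes the medians were 0.03, 0.06 and -0.04, and 5.06%, 7.28% and 7.68% were 2-fold apart. Stat5b (-0.91), Stat5a (-0.81) and Jak3 (0.77), which carry the signal, were below 2-fold for IL-6/IL-23 relative to TGFβ. Of 11 T cell identity genes, 1 was higher in that comparison, against 3.75% of all genes, and 0 were lower, against 3.53%. The median over these 11 was 0.17. The higher gene was the costimulatory receptor Cd28 (1.59), and Cd5 and Cd6 both stood at 0.83 there and Cd4 at -0.56. In both comparisons with IL-6/TGFβ, 0 of the 11 were 2-fold apart, with medians of 0.03 over TGFβ and -0.34 over IL-6/IL-23.

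Genes next to the Gimap run were read to see whether the ratios extended beyond it. Of 16 neighbours with a probe set of their own, 8 on each side, 11 were above the floor on at least 1 array. For IL-6/IL-23 relative to TGFβ, 10 could be read and 0 passed the 2-fold rule (median 0.07), against 7.28% of all genes (median 0.06). Among the 10, Tmem176b (at least 1.49-fold lower) and Tmem176a (at least 1.09-fold lower) gave bounds only, so a 2-fold difference there could not be read. Repin1 was at 0.82 and Tra2a, a splicing regulator, at -0.74. For IL-6/TGFβ relative to TGFβ and over IL-6/IL-23, 2 of 11 were higher and 0 lower, with medians of 0.28 and 0.19. Over all genes 2.84% and 3.97% were higher and 2.23% and 3.72% lower, with medians of 0.03 and -0.04. The higher neighbours were Tmem176b and Tmem176a, which lie next to Gimap3, and Gimap3 itself was at 0.19 and -0.19.

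**Figure D5:**
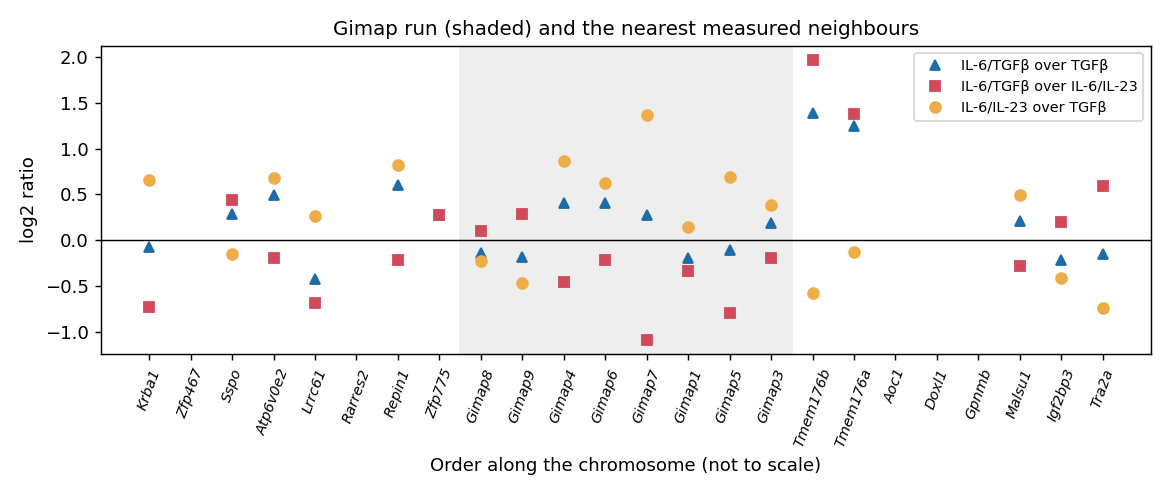
Log2 ratios in the 3 comparisons along the chromosome, in gene order and not to scale, for the Gimap run (shaded) and the 8 nearest measured genes on each side; a gene without points was at the floor on both arrays of the pair. The points of Zfp775, and those of Tmem176b and Tmem176a in the comparisons with the IL-6/IL-23 array, are bounds. Within the run the ratios for IL-6/IL-23 relative to TGFβ change sign between Gimap9 (-0.47) and the adjacent Gimap4 (0.86).

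The genes whose pattern over the 3 arrays came closest to the median of the Gimap genes were Acss2, Lemd2, Smim20, Pcid2 and Lias. Likeness was the Euclidean distance between log2 profiles centred on their mean, and these 5 lay within 0.023. With 3 arrays such a match is weak: 3531 of 8568 other genes lay within the median distance of the members themselves, 0.34. The closest member was Gimap3, at 0.047, and the farthest was Gimap7, at 0.73.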

How the data were processed

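The authors deposited linear intensities, 1 per probe set and array; per the labels' protocols, the arrays (Affymetrix, mouse) were hybridized with biotin-labelled cRNA. How the probes were summarized, corrected for background and scaled is not stated in the labels or the file. The depth is that of 3 arrays, 1 per condition, and this number limits the precision. After 64 control probe sets were left out, log2 values of 45037 probe sets were quantile-normalized, which removes any difference in total mRNA (Python 3.11.15, numpy 2.4.6, pandas 2.3.3). Of these, 34945 carried 1 gene symbol in the platform annotation, 932 several and 9160 none. Genes restricted to other tissues (88 probe sets) gave the floor, as their 95th percentile. A gene was represented by its brightest probe set (highest mean over 3 arrays), and values below the floor were raised to it. The probe-set SD came from the median absolute deviation of the difference between the 2 brightest probe sets of a gene, over 3988, 3943 and 3956 genes.

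The members and lists were chosen with earlier results of these data known. Named were every Gimap probe set and, from each of 5 gene lists and the neighbours, up to 4 members with the largest ratio in any comparison; Gabarapl2, Foxo1, Cd27 and the genes given for markers were named beside these, after their values were seen. The code that makes the calls was tested on simulated data, which does not test the calls themselves. Promoters are from RefSeq (GRCm38.p6). Alternatives covered scaling, the floor, the choice of probe set and the size rule.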

Additional observations from a re-analysis of the deposited data

How the results depend on the processing

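The alternatives were 3 other scalings, 3 other floors, 2 other choices of probe set and a 1.5-fold rule. No paired analysis was possible because each condition has 1 array. For IL-6/IL-23 relative to TGFβ, the count of Gimap genes at least 2-fold higher was 1 in the main setting. It was 2 after median scaling, 2 when all probe sets of a gene were averaged and 2 without _x_at and _s_at probe sets, where Gimap4 joined Gimap7. Over all genes 399 of 9656, 332 of 9643 and 345 of 9319 were higher in these settings. The count of Gimap genes was 4 under the 1.5-fold rule, where 1030 of 9614 genes were higher. It was 0 without scaling, which instead gave 2 lower, but there 3374 of 9718 genes were lower and 84 higher. For IL-6/TGFβ relative to IL-6/IL-23, the count of lower members went from 1 to 2 under the 1.5-fold rule and to 0 without scaling. Over all genes, 1072 of 9709 were lower under the 1.5-fold rule and 134 of 9310 without scaling. Without scaling, the members' median log2 ratio was -0.41 for IL-6/TGFβ relative to TGFβ, 0.17 for IL-6/TGFβ relative to IL-6/IL-23 and -0.41 for IL-6/IL-23 relative to TGFβ. The median near 0 for IL-6/TGFβ relative to TGFβ was -0.06 after median scaling, -0.03 on hybridization controls and -0.0089 with averaged probe sets. Leaving the arrays unscaled shifts every gene by the difference in brightness between arrays. The 24 single ratios changed sign 11 times without scaling and 1 time after median scaling (Gimap8 for IL-6/TGFβ relative to IL-6/IL-23, 0.10 to -0.12), and 0 times under scaling on hybridization controls, the other floors and the other probe-set choices. Other scalings also moved the balance of all genes: the share of 2-fold genes that were higher for IL-6/IL-23 relative to TGFβ was 51.6% after quantile normalization, 54.2% after median scaling, 33.4% on hybridization controls and 2.43% unscaled. For IL-6/TGFβ relative to TGFβ it was 56.0%, 44.0%, 46.9% and 15.3%, and for IL-6/TGFβ relative to IL-6/IL-23 51.6%, 37.3%, 64.2% and 89.4%. The median ratio of all genes above the floor on both arrays lay at -0.21 for IL-6/TGFβ relative to IL-6/IL-23 and at 0.13 for IL-6/IL-23 relative to TGFβ after median scaling. The number of genes called 2-fold for IL-6/IL-23 relative to TGFβ rose from 361 higher and 339 lower to 2496 and 2240 with no floor, as probe sets near background entered. With no floor it went from 270 and 212 to 2158 and 1978 for IL-6/TGFβ relative to TGFβ, and from 385 and 361 to 2387 and 2462 for IL-6/TGFβ relative to IL-6/IL-23. Signal over background limited the further probe sets of Gimap6 and Gimap7 but not the brightest ones.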

Other observations

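Tmem176b and Tmem176a, membrane protein genes that stand next to the Gimap run beside Gimap3, showed a pattern that no Gimap gene had. Tmem176b read 70.7 with TGFβ, 43.3 with IL-6/IL-23, which is below the floor, and 185 with IL-6/TGFβ. Tmem176a read 51.8, 25.3 (below the floor) and 123. Over TGFβ their log2 ratios with IL-6/TGFβ were 1.39 and 1.25. Over IL-6/IL-23 they were at least 3.91-fold and at least 2.59-fold higher. Each value rests on 1 array, and no test was possible.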
